A study of Mus musculus with 14 samples.

Results

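Voltage-gated calcium and sodium channel genes were taken as every probe set that names exactly 1 gene whose symbol starts with Cacna, Cacnb or Cacng, or reads Scn, a number, and then a or b. This gave 29 probe sets for 29 genes, out of 14996 probe sets with 1 symbol and 23332 in all. The genes fell into 9 calcium channel alpha1 subunits, 3 alpha2delta subunits, 3 beta subunits, 4 genes of the gamma and TARP family, 7 sodium channel alpha subunits and 3 sodium channel beta subunits. Other genes of these families were not analysed here.

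RNA from whole cerebral cortex and hippocampus of mice on a C57BL/6 background, labelled male, was hybridized to Affymetrix whole-transcript exon arrays at postnatal day 7, 1 sample to an array. Every animal carried floxed Ctcf on both alleles. The mutants (cKO; CTCF; Nex-Cre, fl/fl; +/Cre) also carried 1 allele of Cre at Nex (Neurod6), a gene of postmitotic excitatory neurons of cortex and hippocampus, and the controls (fl/fl; +/+) carried no Cre. No group with Cre and intact Ctcf was analysed here, so deletion of Ctcf and the Cre allele cannot be told apart. The groups were 4 cortex cKO, 4 cortex control, 3 hippocampus cKO and 3 hippocampus control arrays, which the labels call biological replicates without saying which animal each came from.

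3 hippocampus-labelled arrays were set aside because each matched a cortex array of its own genotype: cKO 1 matched cortex cKO 3, cKO 3 matched cortex cKO 2, and control 2 matched cortex control 3. The Spearman correlation within these pairs, over all probe sets, was 0.997 or higher, and no other pair of arrays exceeded 0.990. That left 1 hippocampus cKO and 2 hippocampus control arrays, and all results are given for the remaining 11 arrays unless the 14 are named. Signal of the Y-linked genes Eif2s3y and Kdm5d was near background (a mean of at most 4.10) on cortex cKO 1 and 4, hippocampus cKO 2 and hippocampus control 1, and at least 7.91 elsewhere, although all samples are labelled male. Ctcf itself was at 7.79, 7.94, 7.74 and 7.78 in cortex cKO, against 9.29, 9.23, 9.22 and 9.18 in cortex control, and at 8.31 in hippocampus cKO, against 8.95 and 9.16 in hippocampus control. Neurod6, where Cre replaces 1 allele, fell 3.66-fold in cortex cKO (adjusted p = 0.00201). The hippocampal granule cell gene Prox1 was at 8.91 to 9.28 on the 3 hippocampus arrays used, against 6.61 to 7.20 on the cortex arrays.

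Voltage-gated calcium channels open on depolarization and admit the calcium that triggers transmitter release and neuronal gene expression. A pore-forming alpha1 subunit sets the channel type, while beta and alpha2delta subunits bring the pore to the membrane and tune its opening. Voltage-gated sodium channels carry the upstroke of the action potential through a pore-forming alpha subunit, and their beta subunits adjust gating and bind cell adhesion partners. Most gamma genes of the brain code for transmembrane AMPA receptor regulatory proteins (TARPs), which traffic glutamate receptors rather than forming part of a calcium channel. The brain shifts during early postnatal life in the sodium channel subunits it uses, with Scn3a prominent before birth and Scn1a rising after it.

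Values are log2 expression values, so 1 unit is a factor of 2. A gene was called in a comparison when its adjusted p in limma (Benjamini-Hochberg over all 23332 probe sets) was under 0.05 and its fold difference exceeded 1.2, the limits in the study's own description. Errors of differences are limma standard errors (SE), and intervals are 95% intervals. Levels are given per probe set and were not compared between genes. Probe sets of 719 olfactory receptors, genes not expected in these tissues, had a median of 3.61 over the 14 arrays, taken as the background guide. All 29 channel genes lay above it by their mean over the 11 arrays used, with Scn7a lowest at 3.94. The guide is a median, so a mean above it does not by itself show expression.

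1 of the 29 channel genes (3.45%), Scn1a, was called between cortex cKO and cortex control, and it was lower in cKO. In that comparison 455 of 23332 probe sets (1.95%) were called, 138 of them higher (0.591%) and 317 lower (1.36%). 6 channel genes had an unadjusted p under 0.05, against 2667 of all probe sets. The median difference of the 29 genes, cKO minus control, was 0.026, against -0.017 over all probe sets, with 17 differences above 0 and 12 below. The cKO and control values did not overlap for 5 of the 29 genes, against 8.4% of all probe sets.

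Scn1a codes for the pore of NaV1.1, the sodium channel of inhibitory interneuron axons and a major gene of human epilepsy. Its values were 8.02, 8.44, 8.15 and 8.23 in cortex cKO, against 8.73, 8.71, 8.79 and 8.79 in cortex control. Every cKO array lay below every control array, and the cKO arrays were more spread out. The means were 8.21 ± 0.18 in cKO and 8.76 ± 0.04 in control cortex (SD, n = 4 each), a difference of -0.54 (SE 0.095; interval -0.76 to -0.33), or 1.46-fold lower in cKO, with an adjusted p of 0.0217 in limma. On the 2 hippocampus-labelled cKO arrays that were set aside Scn1a read 8.05 and 8.39, and on the control array set aside it read 8.67. These arrays matched cortex cKO 3, cKO 2 and control 3 (8.15, 8.44 and 8.79), which are already in the test. They are not taken as further replicates.

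The call on Scn1a was close to the threshold. It was kept without cortex cKO 2 (adjusted p = 0.0131) and lost without any other single cortex array (limma adjusted p 0.0514 to 0.0733). With Y-linked signal as a covariate the difference was -0.46 with an adjusted p of 0.0925, and without the 2 cortex cKO arrays that lack Y-linked signal it was -0.46 with an adjusted p of 0.166. In bulk tissue, fewer cells of a type and less Scn1a RNA per cell cannot be told apart. Of 12 interneuron marker genes measured, 0 were called in cortex by limma and 5 had an unadjusted p under 0.05, against 2667 of all 23332 probe sets. 6 of the 12 had a higher and 6 a lower mean in cKO, with differences between -0.43 and 0.41. The mean level of the list, in which such opposite differences offset each other, was 8.21 to 8.38 in cKO and 8.27 to 8.39 in control. Of 8 excitatory neuron markers measured, 2 were called lower (Neurod6 and Bcl11b), while 4 had a higher and 4 a lower mean in cKO, with a median difference of -0.03. The mean level of that list, in which Neurod6 alone differed by -1.87, was 9.13 to 9.22 in cKO and 9.35 to 9.58 in control. Of the other lists, 0 of 9 astrocyte and 0 of 11 oligodendrocyte lineage markers were called, each list with 1 at an unadjusted p under 0.05. Of 11 endothelial and pericyte markers 10 had a lower mean in cKO, 4 with an unadjusted p under 0.05 and 0 called (median difference -0.17). Of 7 cortex markers 3 were called lower, and of 7 hippocampus markers 1. No marker of these lists lay below the background guide on average, and their part in the Scn1a difference was not tested.

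In the hippocampus Scn1a was at 7.47 in cKO, against 7.98 and 8.14 in control. The lone cKO array was below both controls (difference -0.59, SE 0.16; adjusted p in limma = 0.448), which was not called. The hippocampal difference minus the cortical one was -0.05 (SE 0.19; interval -0.48 to 0.38; adjusted p in limma = 0.99). Differences between the regions within that interval were not resolved.

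**Figure D1:**
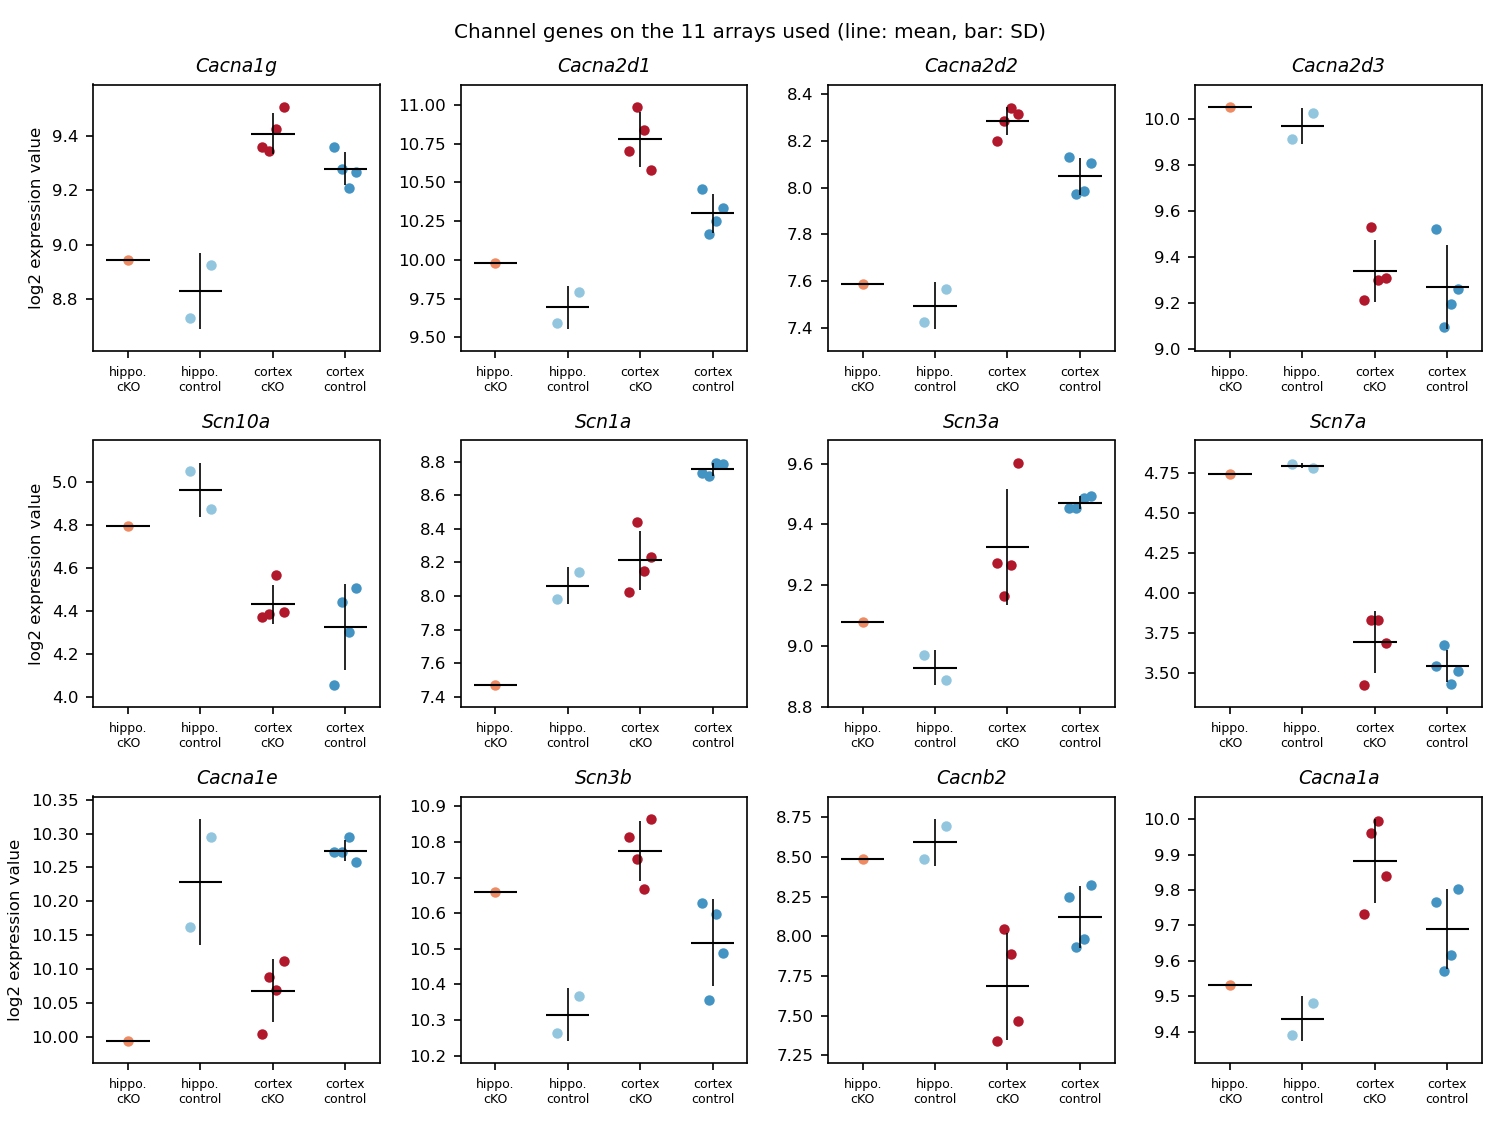
Log2 expression values (vertical axes, separate scales) of 12 channel genes on the 11 arrays used, with hippocampus cKO (n = 1), hippocampus control (n = 2), cortex cKO (n = 4) and cortex control (n = 4) from left to right. Points are arrays, horizontal lines are means and vertical bars are SDs. For Scn1a all 4 cortex cKO points, at 8.02 to 8.44, lie below all 4 cortex control points, at 8.71 to 8.79.

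The 250 bases before an annotated start of Scn1a, and of Cacna2d1, are printed below with those of Cacnb1. Cacna2d1 had the largest positive difference among the channel genes in cortex. The Cacnb1 window holds the only match among the channel genes to a core of the CTCF motif. Which start is used in these tissues was not measured. The sequences are from RefSeq (GRCm38.p6), 5′ to 3′ on the strand of the gene, with CG dinucleotides, the usual sites of DNA methylation, in capitals. They lie at chr2:66440838-66441087 (minus strand), chr5:15934441-15934690 (plus strand) and chr11:98018373-98018622 (minus strand).
Scn1a: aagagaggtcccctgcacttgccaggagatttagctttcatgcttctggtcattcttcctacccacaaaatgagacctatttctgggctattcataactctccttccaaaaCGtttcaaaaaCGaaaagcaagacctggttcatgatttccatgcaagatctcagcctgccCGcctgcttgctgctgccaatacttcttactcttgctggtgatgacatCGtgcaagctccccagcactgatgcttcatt
Cacna2d1: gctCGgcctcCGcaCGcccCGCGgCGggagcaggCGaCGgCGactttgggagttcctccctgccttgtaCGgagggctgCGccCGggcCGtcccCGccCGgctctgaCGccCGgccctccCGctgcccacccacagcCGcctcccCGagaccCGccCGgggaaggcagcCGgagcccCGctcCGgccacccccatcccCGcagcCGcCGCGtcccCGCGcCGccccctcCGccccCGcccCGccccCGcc
Cacnb1: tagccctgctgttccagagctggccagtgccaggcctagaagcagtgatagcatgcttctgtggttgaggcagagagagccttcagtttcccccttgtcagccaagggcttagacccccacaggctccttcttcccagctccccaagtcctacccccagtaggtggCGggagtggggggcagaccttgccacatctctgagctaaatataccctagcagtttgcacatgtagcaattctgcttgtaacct
The Scn1a window was 46.8% G and C with 4 CG dinucleotides, the Cacna2d1 window 82.4% with 36, and the Cacnb1 window 56.0% with 1. The median of 32851 mouse windows in the table was 52.4% with 6.

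The RefSeq table matched 22 of the 29 channel genes, with 31 windows. A core of the CTCF motif, read as CCA, any 2 bases, AG, any 2 bases and GGC, was searched on both strands and found in 1 of these 31 windows, against 679 of 32851 (2.07%). The match in Cacnb1 reads CCAGTAGGTGGC and begins 95 bases before the start (position -95), and Cacnb1 was at 9.35 ± 0.06 in cortex cKO and 9.39 ± 0.09 in cortex control (SD, n = 4 each; adjusted p in limma = 0.916). The CAGATG motif, an E-box of the kind bound by NeuroD factors, was found in 4 of the 31 windows, against 14.4% of all. TATAAA was found in 1 of the 31 windows, against 12.4% of all windows, and TGACGTCA, the cAMP response element, in 0, against 1.55%. The E-box matches lay before Cacna1s, Cacnb2 and Cacna1c, and the TATAAA match before Cacna1d. A match or its absence describes these letters in this window, and binding was not measured.

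Scn1a lies in a cluster of sodium channel genes on chromosome 2, in the order Scn3a, Scn1a, Scn9a, Scn7a among the genes measured. The other 3 were not called in cortex, and their differences were not tested against that of Scn1a. Scn3a, the pore of the early postnatal and fetal channel NaV1.3, was at 9.27, 9.16, 9.27 and 9.60 in cortex cKO, against 9.45, 9.45, 9.49 and 9.49 in control, with 3 cKO arrays below and 1 above all controls. Its difference was -0.15 (SE 0.096; adjusted p in limma = 0.668). Scn9a, the pore of NaV1.7 of sensory neurons, and Scn7a, which codes for a channel that senses sodium rather than voltage, differed by 0.24 (SE 0.29) and 0.15 (SE 0.10), neither called. Of the other genes between Scn3a and Scn1a, Csrnp3 differed by 0.02 and Galnt3 by -0.10. Scn2a and Ttc21b, which also lie there, had no probe set with that symbol alone and were not measured here.

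Of the other sodium channel alpha subunits, Scn8a, the pore of NaV1.6 at the axon initial segment, differed by -0.05 (SE 0.13; interval -0.35 to 0.25) in cortex. The sensory neuron channels Scn10a and Scn11a had values of 4.05 to 4.57 and 4.11 to 4.37 across the cortex arrays, close to background, and differed by 0.11 and -0.05. None of these was called.

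None of the 3 sodium channel beta subunits was called in cortex, and Scn3b alone had groups that did not overlap. Scn3b, a beta subunit that modulates inactivation, was at 10.81, 10.75, 10.67 and 10.86 in cortex cKO, against 10.63, 10.36, 10.60 and 10.49 in control. All cKO arrays were above all controls, with a difference of 0.26 (SE 0.083; interval 0.07 to 0.44; adjusted p in limma = 0.231). In the hippocampus Scn3b was at 10.66 in cKO, against 10.26 and 10.37 in control, a difference of 0.34 (SE 0.14; adjusted p in limma = 0.776). Scn2b, a beta subunit linked to the pore by a disulfide bond, differed by 0.32 (SE 0.28) and Scn4b, known for resurgent current, by 0.01 (SE 0.19).

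The 3 alpha2delta subunits all had higher means in cortex cKO, and none was called. Cacna2d1, the receptor of gabapentin and a binding partner of thrombospondins, was at 10.70, 10.99, 10.84 and 10.58 in cKO, against 10.46, 10.16, 10.25 and 10.34 in control. The lowest cKO array was above the highest control, and the difference was 0.48 (SE 0.11; interval 0.23 to 0.72), 1.39-fold, with an adjusted p of 0.0722. Apart from leaving out single arrays, it was called under 4 of 14 alternatives (adjusted p in limma 0.0229 to 0.378 over the 14). The 4 were Y-linked signal as a covariate (0.60, adjusted p = 0.0330) and quantile normalization (0.49, adjusted p = 0.0229), centring on array medians (0.51, adjusted p = 0.0261) and limma's trend and robust options (adjusted p = 0.0339). Leaving out any single array did not make it called. In the hippocampus it was at 9.98 in cKO, against 9.59 and 9.79 in control (difference 0.29, SE 0.19).

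Cacna2d2, another alpha2delta subunit and the gene disrupted in the ducky mouse, was at 8.20, 8.29, 8.34 and 8.32 in cortex cKO, against 8.13, 7.97, 7.98 and 8.11 in control. The groups did not overlap, and the difference was 0.24 (SE 0.072; adjusted p in limma = 0.194). Cacna2d3 was at 9.21, 9.53, 9.30 and 9.31 in cKO, against 9.52, 9.10, 9.20 and 9.26 in control, so that the groups overlapped (difference 0.07, SE 0.11).

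**Figure D2:**
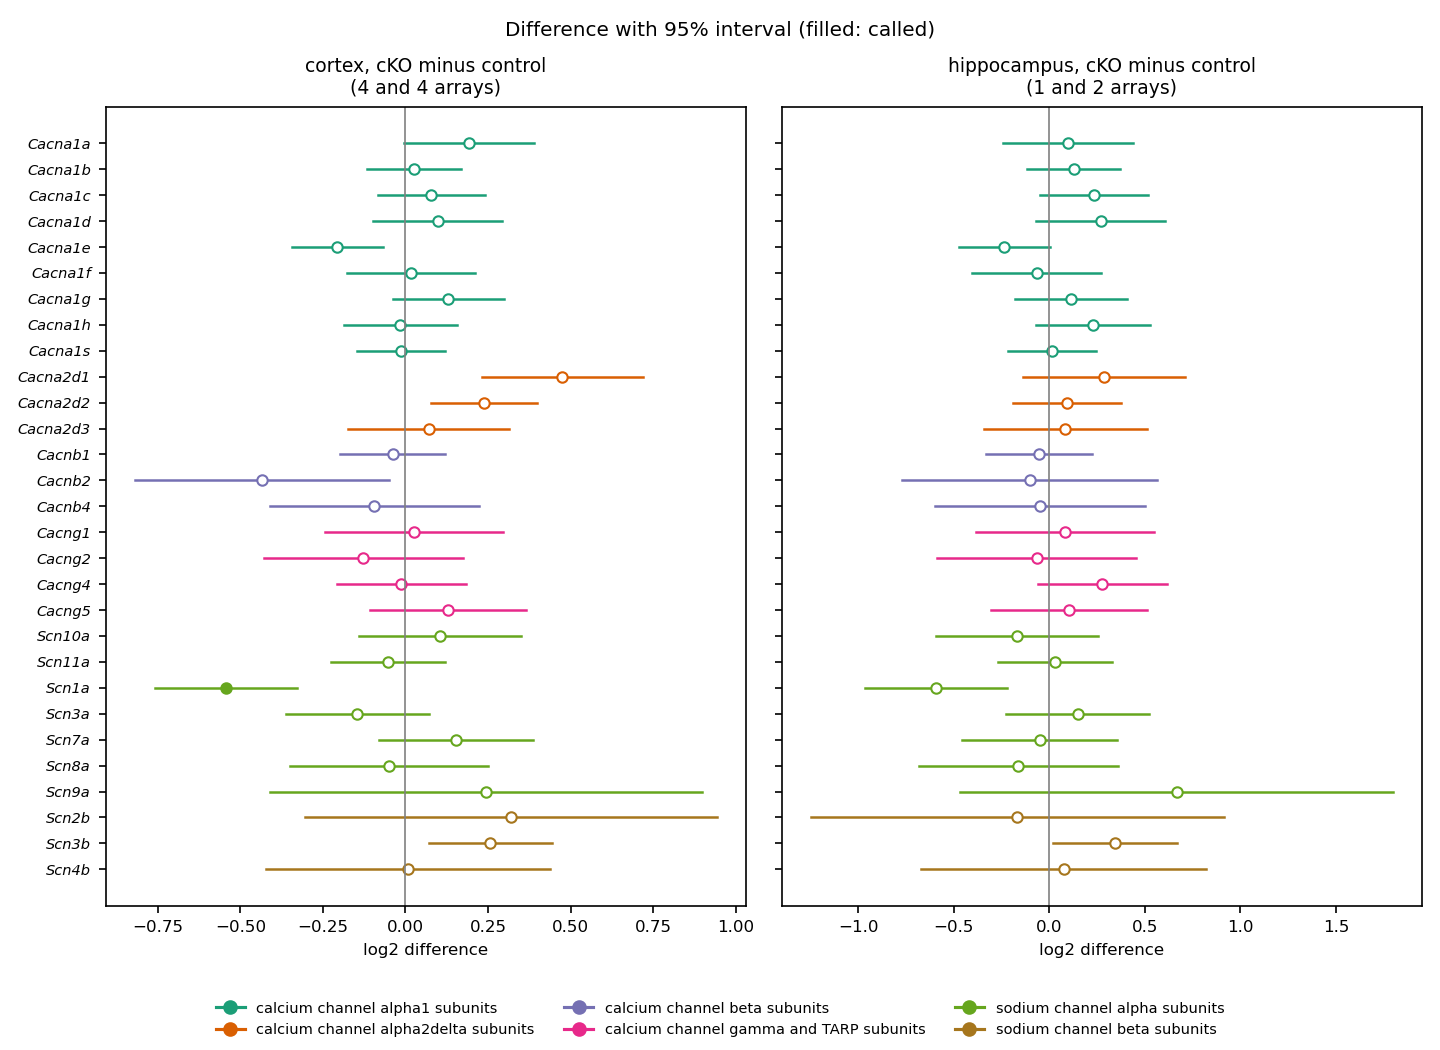
Log2 difference, cKO minus control, of the 29 channel genes (rows, coloured by role) in cortex (left) and hippocampus (right), with 95% intervals from limma; filled points were called. Scn1a, at -0.54, is the only filled point, and Cacna2d1, at 0.48, lies farthest to the right in cortex.

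None of the 9 calcium channel alpha1 subunits was called in cortex, and their differences ran between -0.21 and 0.19. Cacna1e, the pore of R-type channels, was at 10.005, 10.09, 10.07 and 10.11 in cKO, against 10.27, 10.27, 10.30 and 10.26 in control. All cKO arrays were below all controls, which spanned a narrow range. The difference was -0.21 (SE 0.061; interval -0.34 to -0.07; adjusted p in limma = 0.187). In the hippocampus the lone cKO array, at 9.99, also lay below the controls, at 10.16 and 10.29 (difference -0.23, SE 0.11).

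Cacna1a, the pore of the P/Q-type channels that trigger transmitter release, was at 9.73, 9.96, 9.99 and 9.84 in cortex cKO, against 9.77, 9.57, 9.62 and 9.80 in control. The groups overlapped, with a difference of 0.19 (SE 0.087; adjusted p in limma = 0.45). Cacna1b, the N-type pore, differed by 0.03 (interval -0.12 to 0.17), and the L-type pores of brain Cacna1c and Cacna1d by 0.08 (interval -0.08 to 0.24) and 0.10 (interval -0.10 to 0.29). The T-type pores Cacna1g and Cacna1h differed by 0.13 (interval -0.04 to 0.30) and -0.02 (interval -0.19 to 0.15). The retinal L-type pore Cacna1f and the skeletal muscle pore Cacna1s differed by 0.02 and -0.01, at values of 5.01 to 5.35 on the cortex arrays.

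The calcium channel beta subunits, which are intracellular, all had lower means in cortex cKO, and 0 of 3 were called. Cacnb2, the main beta subunit of the heart, which is also used in brain, was at 7.34, 8.05, 7.89 and 7.47 in cKO, against 8.24, 7.93, 7.98 and 8.32 in control. The groups overlapped, and the spread within cKO was the wider one (SD 0.34, against 0.19 in control). The difference was -0.44 (SE 0.17; interval -0.82 to -0.05; adjusted p in limma = 0.362). In the hippocampus Cacnb2 was at 8.49 in cKO, against 8.49 and 8.70 in control. Cacnb4, the gene disrupted in the lethargic mouse, differed by -0.09 (SE 0.14) in cortex.

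Among the gamma and TARP genes, Cacng2 (stargazin), the TARP disrupted in the stargazer mouse, differed by -0.13 (SE 0.13), Cacng4 by -0.01 (SE 0.086) and Cacng5 by 0.13 (SE 0.10). Cacng1, the gamma subunit of skeletal muscle calcium channels, differed by 0.03 (SE 0.12). None of the 4 was called. Cacng1, Cacng4 and Cacng5 are adjacent on chromosome 11.

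The median half-width of the 95% interval over the channel genes was 0.215, with a range of 0.133 to 0.653, in the cortical comparison before adjustment. Cacna1e, Cacna2d1, Cacna2d2, Cacnb2 and Scn3b differed by more than their half-widths and were not called after adjustment.

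Within both genotypes 9 of the 29 channel genes followed a shared order over the cortex arrays, high on cKO 2 and 3 and on control 1 and 4: Scn2b, Scn8a, Scn11a, Cacna1a, Cacna2d1, Cacnb2, Cacnb4, Cacng2 and Cacng5. The same order held for 9.75% of all probe sets, and the opposite one for 2 channel genes (Cacng1 and Scn9a) and 2.15% of all probe sets. Scn2b was at 8.76, 9.71, 9.62 and 9.02 on cortex cKO 1 to 4, against 9.31, 8.53, 8.57 and 9.43 on control 1 to 4, a span within each group that exceeded the difference between the groups. Scn8a was at 9.22, 9.72, 9.72 and 9.42 in cKO and 9.71, 9.36, 9.51 and 9.71 in control. Cacnb4 was at 8.67, 9.20, 9.11 and 8.75 in cKO and 9.18, 8.85, 8.90 and 9.18 in control. The values of Cacna2d1 and of Cacnb2 that are given above carry this order too. It was noticed after the values were seen.

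The means of 6 marker and gene lists were high on the same arrays: astrocyte, microglial, oligodendrocyte lineage, interneuron, hippocampus and AMPA receptor genes. The mean of the astrocyte markers was 9.08, 9.27, 9.29 and 9.13 on cortex cKO 1 to 4, against 9.25, 8.82, 8.86 and 9.33 on control 1 to 4. The microglial mean was 6.795, 7.36, 7.23 and 6.85 in cKO and 6.89, 6.48, 6.53 and 7.05 in control, and all 10 microglial markers had a higher mean in cKO, with 0 called in limma and 1 at an unadjusted p under 0.05. The oligodendrocyte lineage mean was 7.52, 7.88, 7.94 and 7.49 in cKO and 7.73, 7.44, 7.48 and 7.98 in control. The interneuron mean was 8.21, 8.38, 8.36 and 8.26 in cKO and 8.39, 8.27, 8.27 and 8.37 in control. The channel partner genes were also high on cKO 2 and 3 (8.55 each, against 8.45 and 8.46 on the other cKO arrays) and on control 1 and 4 (8.65 and 8.60, against 8.50 and 8.54). Cortex cKO 1 and 4 are the arrays without Y-linked signal, while all 4 controls have it. The part of cell makeup, sex or dissection in these orders was not tested.

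**Figure D3:**
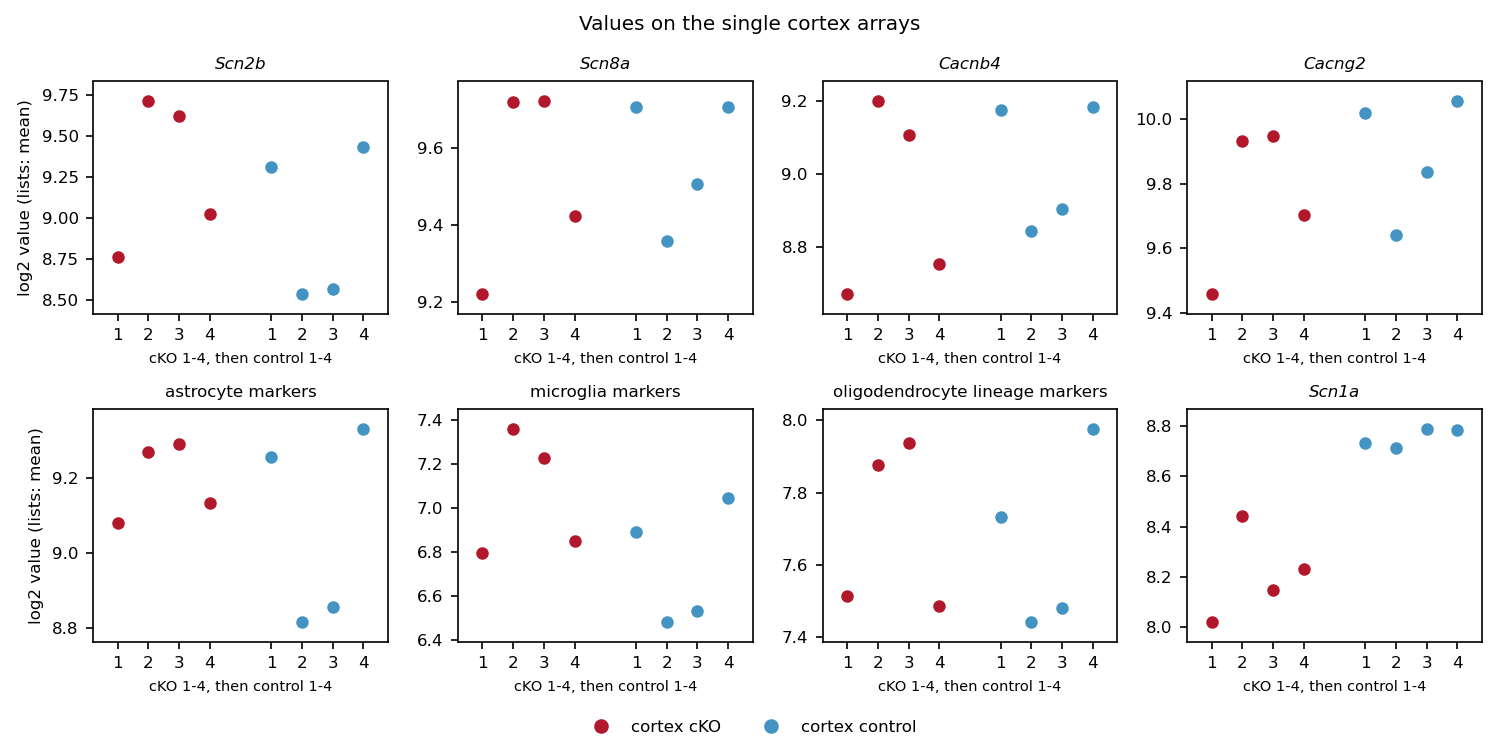
Log2 values on the 8 single cortex arrays (cKO 1 to 4, then control 1 to 4, on the horizontal axis) of 4 channel genes, the mean of 3 glial marker lists, and Scn1a. In the first 7 panels cKO 2 and 3 and control 1 and 4 are the higher arrays of their group, while the Scn1a values separate by genotype.

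In the hippocampus, with 1 cKO array against 2 control arrays, 0 of the 29 channel genes were called by limma, and 1 of 23332 probe sets was (0.00429%). 2 channel genes, Scn1a and Scn3b, had an unadjusted p under 0.05, against 1448 of all probe sets. The cKO array lay outside the range of the controls for 23 of the 29 genes, against 67.3% of all probe sets. The median difference was 0.083, against 0.056 over all probe sets, and the median half-width of the interval was 0.372. The lone cKO array lacks Y-linked signal, as does control 1.

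The sign of the difference was the same in hippocampus and cortex for 20 of 29 channel genes (69.0%), against 53.8% of all probe sets. In the test of the difference between the regions' responses, 0 of the 29 genes were called by limma, and 0 had an unadjusted p under 0.05. Among all probe sets 2 were called (0.00857%) and 1228 had an unadjusted p under 0.05. The widest of these estimates were for Scn2b (-0.49, interval -1.73 to 0.76) and Scn9a (0.42, interval -0.88 to 1.73).

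8 of the 29 channel genes (27.6%) differed between hippocampus and cortex in controls, 3 higher and 5 lower in hippocampus. Over all probe sets 2913 were called (12.5%), 1446 of them higher (6.2%) and 1467 lower (6.29%). 15 channel genes had an unadjusted p under 0.05, against 6716 of all probe sets. The median difference was -0.127 for the channel genes and 0.021 for all probe sets, and the groups did not overlap for 19 of 29 genes, against 37.6% of all probe sets. This comparison uses the same 4 cortex control arrays as the cortical comparison of genotypes.

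All 3 alpha2delta subunits differed between the regions, in different directions. Cacna2d3 was at 9.91 and 10.03 in hippocampus control, against 9.52, 9.10, 9.20 and 9.26 in cortex control, with no overlap. It was 1.63-fold higher in hippocampus (difference 0.70, SE 0.13; adjusted p in limma = 0.0119). Cacna2d1 was lower, at 9.59 and 9.79 in hippocampus, against 10.46, 10.16, 10.25 and 10.34 in cortex (difference -0.61, SE 0.13; adjusted p in limma = 0.0203). Cacna2d2 was at 7.42 and 7.57 in hippocampus, against 8.13, 7.97, 7.98 and 8.11 in cortex (difference -0.55, SE 0.088; adjusted p in limma = 0.00571). The hippocampus cKO array, which the test did not set against cortex, stood with the hippocampus controls, at 10.05, 9.98 and 7.59 for Cacna2d3, Cacna2d1 and Cacna2d2.

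Scn1a and Scn3a, both of the chromosome 2 cluster, were lower in hippocampus. Scn1a, at 7.98 and 8.14 in hippocampus control, was below all 4 cortex controls (8.71 to 8.79), 1.62-fold (difference -0.69, SE 0.12; adjusted p in limma = 0.00734). Scn3a was at 8.97 and 8.89 in hippocampus, against 9.45, 9.45, 9.49 and 9.49 in cortex (difference -0.54, SE 0.12; adjusted p in limma = 0.0197). Cacna1g, the T-type pore of thalamocortical rhythms, was at 8.73 and 8.93 in hippocampus, against 9.36, 9.28, 9.21 and 9.27 in cortex, 1.37-fold lower (difference -0.45, SE 0.091; adjusted p in limma = 0.0149).

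Scn7a and Scn10a were higher in hippocampus, at low signal. Scn7a was at 4.81 and 4.79 in hippocampus control, against 3.55, 3.67, 3.43 and 3.51 in cortex control (difference 1.26, SE 0.13; adjusted p in limma = 0.000682). The cortex mean of 3.54 lies below the background guide of 3.61, with 3 of 4 cortex arrays under it. With those arrays set to the guide, hippocampus was 2.25-fold higher. That value is no lower bound, because it leaves out the shift between matching arrays that is given below. Scn10a, the NaV1.8 pore of pain-sensing neurons, was at 5.05 and 4.87 in hippocampus, against 4.05, 4.44, 4.30 and 4.51 in cortex (difference 0.64, SE 0.13; adjusted p in limma = 0.0170).

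**Figure D4:**
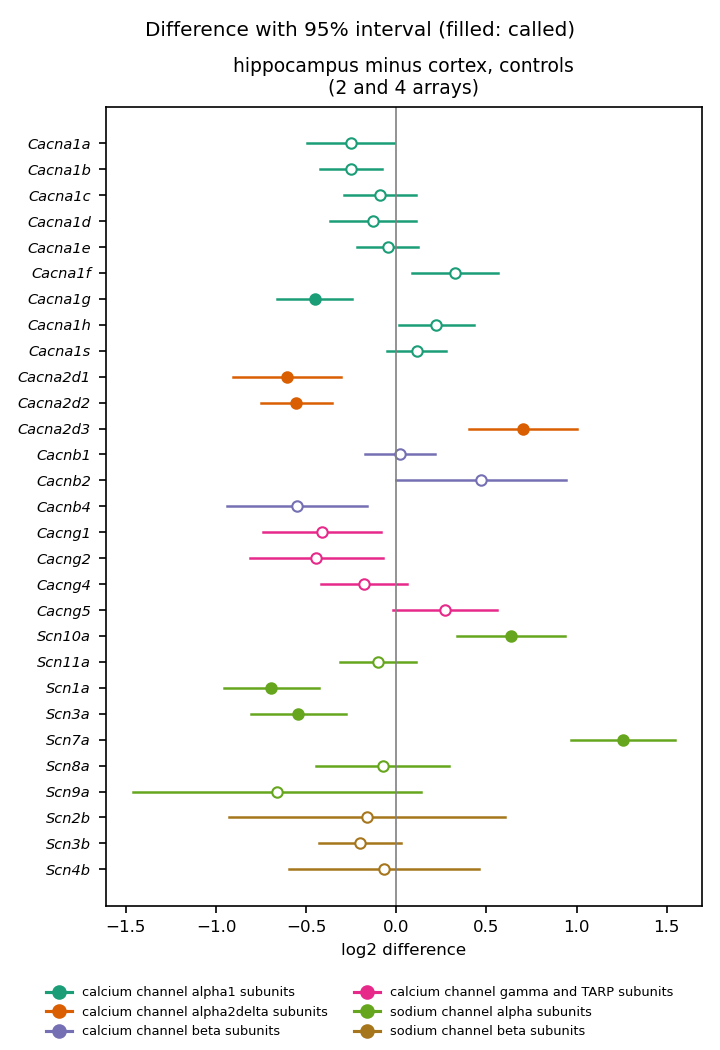
Log2 difference, hippocampus minus cortex in controls, of the 29 channel genes (rows, coloured by role), with 95% intervals from limma; filled points were called. The 3 filled points to the right are Cacna2d3, Scn10a and Scn7a (0.70, 0.64 and 1.26), and the 5 to the left run between -0.45 and -0.69.

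The 3 arrays set aside bear on these low values directly. Against the cortex array it matched, each of them read Scn10a higher, by 0.45 for control 2, 0.41 for cKO 1 and 0.48 for cKO 3. For Scn7a the differences were 0.40 for control 2, 0.44 for cKO 1 and 0.40 for cKO 3. So arrays with the hippocampus label and a cortex profile read Scn10a at 4.75 to 4.97, as the hippocampus arrays did, and Scn7a at 3.83 to 4.27, between the regions. Of the 7 channel genes with a mean under 6, 5 read higher on average on the arrays set aside, with a median difference of 0.20. Of the other 22, 1 did, with a median of -0.06. Over all probe sets, 75.1% of the 9294 with a mean under 6 read higher, with a median of 0.13. Of the rest 53.7% did, with a median of 0.01.

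With the mean difference of the 3 matching pairs subtracted from the hippocampus arrays, an alternative chosen after seeing the data, 5 of the 8 calls remained. Scn10a was lost (difference 0.19; adjusted p in limma = 0.475), Scn7a was called at 0.85 (adjusted p in limma = 0.00719), and Scn1a, Cacna2d2, Cacna2d3 and Cacna1g were called. Cacna2d1 (-0.50; adjusted p = 0.0678) and Scn3a (-0.48; adjusted p = 0.0520) missed the threshold. Without hippocampus control 1, 1 of the 8 calls remained, Scn7a, and without hippocampus control 3, 5 remained. With the 14 arrays as labelled 2 remained, Scn7a and Scn10a.

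**Figure D5:**
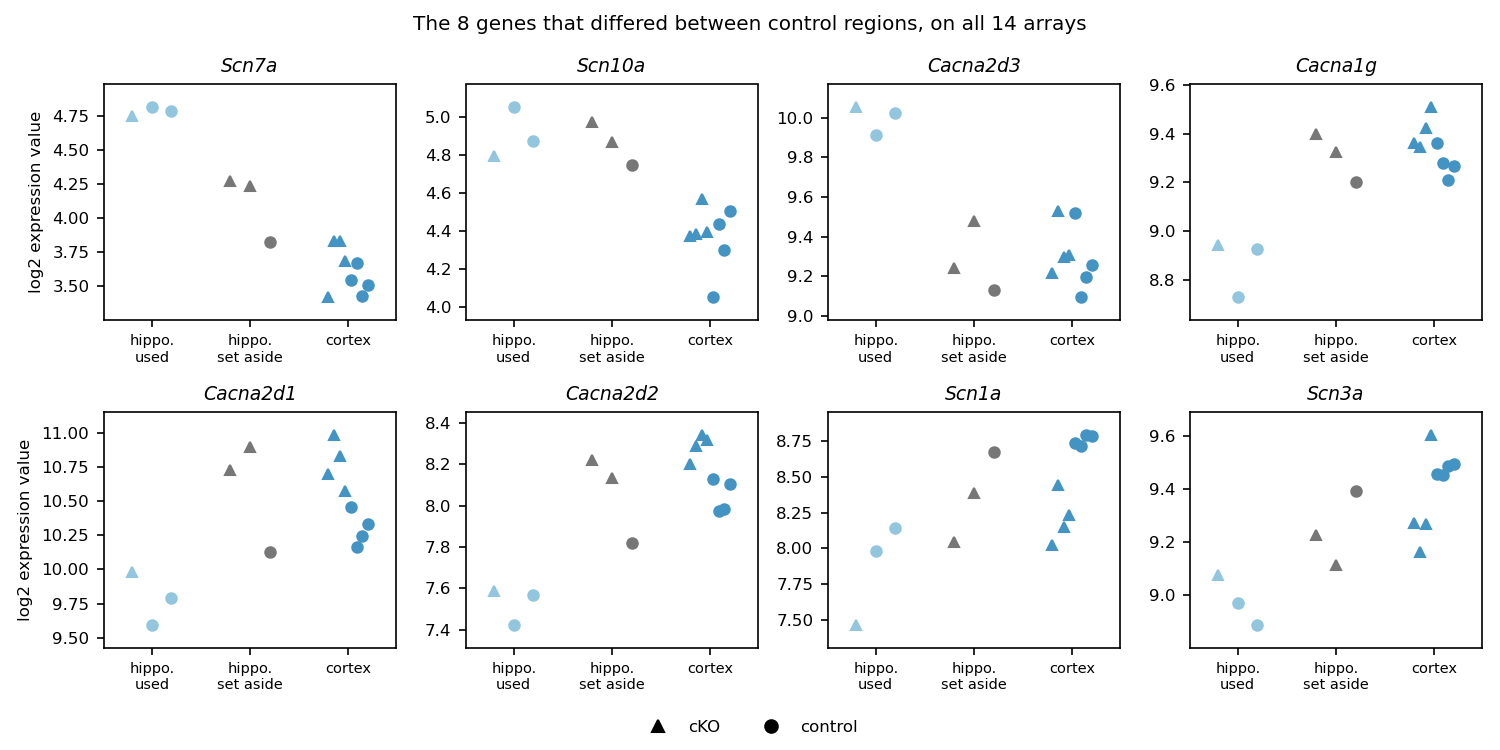
Log2 values of the 8 genes called between control regions on all 14 arrays, with the 3 hippocampus arrays used (left), the 3 hippocampus-labelled arrays set aside (middle) and the 8 cortex arrays (right); triangles are cKO and circles control. For Scn10a the middle group, at 4.75 to 4.97, lies above all cortex arrays, and for Cacna2d3, at 9.13 to 9.48, it lies among them.

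The 7 channel genes with an unadjusted p under 0.05 that were not called leave the direction by role mixed. Cacnb4 (-0.55, SE 0.17), Cacng2 (-0.44, SE 0.16) and Cacng1 (-0.41, SE 0.15) had lower values in hippocampus, as did Cacna1a and Cacna1b (-0.25 each). Cacna1f (0.32, SE 0.11) and Cacna1h (0.22, SE 0.093) had higher ones. The arrays set aside, minus their matching cortex arrays, also differed, on average by 0.20 for Cacna1f and -0.06 for Cacna1h. For Cacng1, Cacna1a and Cacna1b that shift was -0.15, -0.11 and -0.10, and for Cacng2 and Cacnb4 -0.07 and -0.03. Among cell type markers, the astrocyte mean was 9.57 and 9.61 in hippocampus control, against 8.82 to 9.33 in cortex control. Called higher in hippocampus were 3 of 9 astrocyte and 3 of 12 interneuron markers, against 6.2% of all probe sets. 4 interneuron markers had a lower mean there. Of 8 excitatory neuron markers 2 were called higher and 1 lower. Of 11 endothelial and pericyte markers 1 was called higher, of 11 oligodendrocyte lineage markers 1, and of 10 microglial markers 0. The part of these cell types in the channel differences was not tested.

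Among 23 measured genes of channel partners, out of 30 listed, 1 was called in cortex, Fgf13, and it was lower. Fgf13 codes for a fibroblast growth factor homologous factor that stays inside the cell and binds the tail of sodium channel alpha subunits. It was at 9.53, 9.55, 9.22 and 9.42 in cortex cKO, against 10.33, 10.07, 10.27 and 10.22 in control, with no overlap. The difference was -0.79 (SE 0.10), 1.73-fold lower in cKO, with an adjusted p of 0.00420 in limma. With the 14 arrays as labelled the difference was the same, the SE was 0.22 and the call was lost (adjusted p = 0.138). That setting adds hippocampus-labelled arrays only, and all groups share 1 estimate of spread. The call was kept without each array in turn (adjusted p up to 0.0207). In the hippocampus Fgf13 was at 10.46 in cKO, against 10.74 and 10.97 in control, a difference of -0.39 that was not called (adjusted p in limma = 0.81).

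The other partner genes with the smallest p in cortex were Stac (-0.45, SE 0.12), an adaptor of L-type channels, Rem2 (-0.29, SE 0.10), a small GTPase that inhibits calcium channels, and Bsn (0.20), the active zone scaffold bassoon, none of them called. The median difference of the list was -0.024, against -0.017 over all probe sets. Between control regions 9 of the 23 were called, against 12.5% of all probe sets, Fgf13 higher in hippocampus (0.63, SE 0.12) and 8 lower. The active zone gene Rims2, singled out after its values were seen, was lowest (-0.997, SE 0.11). The regional call of Fgf13 was lost with the 14 arrays as labelled (adjusted p in limma = 0.285) and with the replicate block (adjusted p in limma = 0.119). Leaving out either hippocampus control also lost it (difference 0.75 without control 1 and 0.52 without control 3).

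Of 10 measured AMPA receptor subunits and auxiliary genes, out of 14 listed, 0 were called in cortex by limma, and 5 had an unadjusted p under 0.05. Those with the smallest p were Cnih3 (-0.28, SE 0.073; adjusted p = 0.117), a cornichon that modulates AMPA receptors, Shisa7 (0.27, SE 0.081), and the neuronal pentraxins Nptx1 (-0.42, SE 0.13) and Nptx2 (-0.23, SE 0.096), which cluster AMPA receptors. Between control regions 4 of the 10 were called higher and 2 lower in hippocampus, against 6.2% and 6.29% of all probe sets. Nptx1 was at 9.24 and 9.33 in hippocampus control, against 8.21, 8.12, 7.90 and 8.45 in cortex control, with no overlap (difference 1.12, SE 0.15; adjusted p in limma = 0.00302). For the 4 TARP and gamma genes the same comparison called 0, with 3 lower and 1 higher on average in hippocampus. Of these, Cacng2 (-0.44, SE 0.16) and the muscle gamma subunit Cacng1 (-0.41, SE 0.15) had an unadjusted p under 0.05 in limma, as given above.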

How the data were processed

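Each of the 14 arrays measured total RNA of whole cortex or hippocampus. The deposited values are log2 expression values, made by the authors with RMA in Affymetrix Expression Console, per the submitters' processing notes, which also name Partek 6.4 and build mm9. Their medians were 6.57 to 6.77 per array, and no further normalization was applied. Probe sets were named by GEO's platform annotation: 14996 had 1 symbol, 1019 several and 7317 none. No separate depth exists for arrays, and their number limits the precision.

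Groups follow the labels, apart from the 3 arrays set aside. limma 3.58.1 in R 4.3.3 was fitted to 11 arrays with a mean per group, leaving 7 residual degrees of freedom before moderation, and was tested on simulated data. The lone hippocampus cKO array was assumed to vary like the others. Nothing in the labels ties samples to animals or litters, so p-values measure the spread between these samples.

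The 29 genes and the lists of partner and marker genes were chosen with earlier results of these data known. Array values are given in full for genes called in any comparison, filled up to 12 by the smallest p in cortex. Beyond the members, the genes named are the check genes, list genes called in cortex, and those with the 4 smallest p in cortex in the partner and AMPA lists. The probes' positions were not used here. Alternatives covered array choice, Y-linked signal, normalization, filter, moderation, block and fold limit.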

Additional observations from a re-analysis of the deposited data

Results flagged for a closer look

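In 58 groups of 4 cortex arrays, 29 genes in each genotype, 5 held an array far from the other 3 relative to the group's range, and chance gives about 1 in 20. Cacna1d, an L-type pore, was at 8.54 on cortex control 4, against 8.68 to 8.71 on the other controls. Cacna1s, the pore of skeletal muscle, was at 5.26 on cortex cKO 4 and 5.30 on each of the others. Cacnb1, a beta subunit, was at 9.53 on cortex control 1, against 9.33 to 9.35 on the others. Cacng4, a TARP, was at 10.29 on cortex cKO 4, against 9.97 to 10.02 on the others. Scn10a, a sensory neuron pore, was at 4.57 on cortex cKO 3, against 4.37 to 4.39 on the others.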

How the results depend on the processing

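The 1 channel gene called in cortex became 0 with all 14 arrays, without the cKO arrays that lack Y-linked signal, with the replicate block and at a fold of 1.5, and 2 after quantile normalization, centring, or trend and robust options, where Cacna2d1 joined Scn1a. With Y-linked signal as a covariate the count stayed at 1, but the gene was Cacna2d1. Leaving out single arrays gave 0 to 1. With all 14 arrays the cortical difference of Scn1a stayed at -0.54, while its SE rose from 0.095 to 0.19. The 8 genes called between control regions became 2 with all 14 arrays, 1 with the replicate block, 5 at a fold of 1.5 and 5 with the matching-pair difference subtracted. Leaving out single arrays gave 1 to 8. In the hippocampus and in the difference between the regions' responses the count stayed at 0 under every alternative run. No called difference changed sign in any setting. Sign changes were limited to values not called, of at most 0.49 in size.

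Over all probe sets, the 455 called in cortex became 282 with the Y covariate, 212 without the cKO arrays lacking Y-linked signal, 118 with the block and 287 at a fold of 1.5, and 273 to 290 without cortex cKO 2, cKO 4, control 3 or control 4. The 2913 between regions became 635 with all 14 arrays, 1772 with the Y covariate, 402 with the block, 1502 at a fold of 1.5, 1933 with matching arrays averaged and 1124 with the pair difference subtracted, 1907 without cortex control 3, 1544 without hippocampus control 3 and 597 without hippocampus control 1. In the hippocampus the count of 1 became 78 with all 14 arrays, 30 after quantile normalization, 9 after centring, 8 with trend and robust options and 0 to 4 without single arrays. Same-numbered cortex samples had correlations of their deviations of -0.06 to 0.05, within the range of -0.22 to 0.13 for differently numbered ones. That check showed no pairing by number, but with 4 arrays in a group it cannot exclude one. The replicate block also took the calls of Scn1a (adjusted p = 0.128) and Fgf13 (adjusted p = 0.0819) in cortex and of each regional channel call but Scn7a.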
